A study of Glycine max with 24 samples.

Results

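Transcripts of the sucrose-binding proteins and of basic 7S globulin were followed through seed fill in a near-isogenic pair of soybean lines that differ in seed protein. The members were the control probesets AFFX-Gm_SucBP_5_at, AFFX-Gm_SucBP_M_s_at and AFFX-Gm_SucBP_3_s_at, placed toward the 5′ end, the middle and the 3′ end of a sucrose-binding protein message, a basic 7S globulin probeset, and every probeset annotated to SBP2, to LOC100787186 or to a symbol that begins with BG7S. This rule gave 7 of the 37694 soybean probesets on the array. By gene symbol, 1 probeset each measured SBP2, LOC100787186 (RefSeq synonym sbp), BG7S-1 and BG7S-2, the last of these being the basic 7S globulin probeset of the rule. The control probesets carry no gene symbol; the study's annotation describes the 5′ one as sucrose-binding protein 2 and both others as a sucrose-binding protein precursor. Probesets whose name ends in s_at, which include those of SBP2 and of the M and 3′ controls, hold probes that match more than 1 transcript.

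HiPro carried the high-protein allele of wild soybean (Glycine soja, PI468916) at a seed protein QTL on linkage group I (chromosome 20) in a Glycine max background. LoPro kept the Glycine max allele there. Each is a single line, ld04-15154 for HiPro and ld04-15146 for LoPro, so any difference between them is a difference between this pair. None of the 4 member genes lies on chromosome 20 in RefSeq's annotation of Glycine_max_v4.0. Plants of both lines grew in chambers in inoculated soil, and seed was sorted by weight into stage 1 (25 to 50 mg), stage 2 (50 to 100 mg), stage 3 (100 to 200 mg) and stage 4 (200 to 300 mg). Each replicate was a pool of seed from 3 plants that supplied all 4 stages, which gave 6 plant pools, 3 arrays for each line and stage and 24 arrays in all.

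Soybean sucrose-binding protein was first found as a membrane-associated protein that could be labelled with a sucrose analogue, and the protein mediates sucrose uptake when it is made in yeast. By sequence it is a vicilin-like member of the cupin family, to which the storage globulins beta-conglycinin and glycinin also belong. Basic 7S globulin is a different kind of protein, an aspartic protease relative without known protease activity that the seed releases when it is steeped in hot water, and it binds the small peptide leginsulin. No sequence of these members was at hand, so none is shown.

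The arrays measured the transcripts of whole seed tissue, so fewer cells of a type and less RNA per cell cannot be told apart. The cotyledon storage markers were present, with GY1 probesets between 7857 and 24220 signal units on all 24 arrays. Of 9 cotyledon marker probesets, 8 were called higher at stage 4 than at stage 1 in HiPro and 6 in LoPro, by the rule given below. Of all probesets, 10.7% were called higher in HiPro and 11.3% in LoPro. Of 4 seed coat marker probesets, 3 (ANS2, ANR1 and DFR2, enzymes of flavonoid synthesis) fell in both lines, with log2 changes of -4.03, -6.67 and -5.43 in HiPro and -4.12, -6.76 and -4.99 in LoPro, while the peroxidase gene Ep rose by 1.49 in HiPro and 1.98 in LoPro. The part of these tissue markers in the stage changes given below was not tested. The nodule marker N-26 read between 298 and 690 signal units in the seed arrays.

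The members rose through seed fill, and by stage 4 all 7 were called higher in HiPro and 6 of 7 in LoPro. A probeset was called where limma's moderated test across all probesets gave a Benjamini-Hochberg adjusted p below 0.05 and the fold change was at least 1.5. Stage 4 against stage 1, 7 of 7 were called higher in HiPro, where 10.7% of all probesets were called higher, and 6 of 7 in LoPro, where 11.3% were. The exception, LOC100787186 in LoPro, passed on the adjusted p (limma, 0.031) but rose only 1.45-fold. The 5′ control and BG7S-2 also stand in the study's own list of the probesets that rose most between these stages in HiPro. Because that list came from the same experiment, their HiPro calls are no separate evidence. By stage 3 all 7 were called higher than at stage 1 in HiPro (5.96% of all probesets) and all 7 in LoPro (7.49%). In LoPro 4 of 7 calls at stage 3 held without stage 1 replicate 3 or without stage 3 replicate 2, those of the 3′ control, LOC100787186 and BG7S-1 being lost each time. At stage 2 the count was 3 of 7 in HiPro (0.56% of all probesets), or 4 of 7 with the plant pool or the replicate number as a block, which added BG7S-1, and 2 of 7 in LoPro (0.305%), namely SBP2 and the 5′ control, both lost without LoPro stage 1 replicate 3, stage 2 replicate 1 or stage 2 replicate 2. The median change of the members from stage 1 to stage 4 was 4.91 on the log2 scale in HiPro, where the median over all probesets was -0.01, and 2.84 in LoPro, where it was 0.08. No member was called lower in any stage comparison. By annotation several of the 7 probesets read sucrose-binding protein messages, and some moved closely together (r = 0.997 for the 3′ control with LOC100787186). The counts and medians of the 7, here and below, are therefore not over separate genes.

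**Figure D1:**
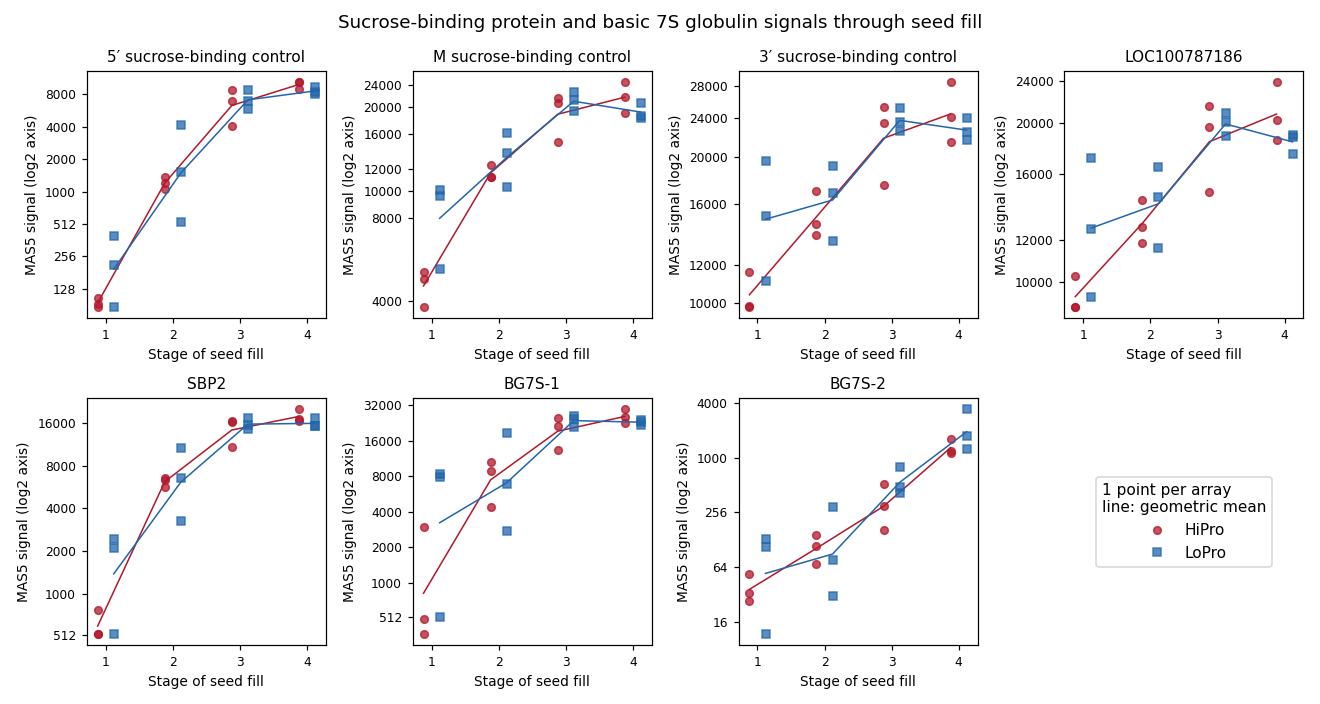
MAS5 signal of the 7 probesets (log2 axis, with a separate range in each panel) against stage of seed fill, with 1 point per array (HiPro circles, LoPro squares) and lines through the geometric means of 3 arrays. All 7 probesets were higher at stage 4 than at stage 1 in both lines, and 1 of 3 LoPro arrays at stage 1 sat near the HiPro arrays or below them.

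SBP2, a sucrose-binding protein gene, had its largest step at the start. At stage 1 its signals were 519, 762 and 522 in HiPro, against 2083, 2437 and 518 in LoPro. At stage 2 they were 6310, 6487 and 5679 in HiPro and 6559, 10712 and 3255 in LoPro. The arrays of the 2 stages did not overlap in either line, and the step was a rise of 3.38 ± 0.41 (SE) on the log2 scale in HiPro (limma adjusted p = 0.00037) and of 2.15 ± 0.41 in LoPro (limma adjusted p = 0.022). Without LoPro stage 1 replicate 3, stage 2 replicate 1 or stage 2 replicate 2 the LoPro step had a limma adjusted p of 0.059, 0.13 or 0.21. Signals then reached 16505, 16129 and 10846 at stage 3 in HiPro and 14385, 17251 and 15509 in LoPro. Stage 4 brought little further change, with 17108, 19945 and 16392 in HiPro and 17198, 15156 and 15318 in LoPro, and the arrays of stages 3 and 4 overlapped in each line. From stage 1 to stage 4 SBP2 rose by 4.91 ± 0.41 in HiPro (limma adjusted p = 4e-08) and by 3.52 ± 0.41 in LoPro (limma adjusted p = 2.3e-06), which was 30.04-fold in HiPro and 11.5-fold in LoPro. The SE is the same in both lines because the fit shares 1 variance per probeset over all 8 groups. Over the 3 plant pools of each line, this rise had an SD of 0.17 in HiPro and 1.20 in LoPro. The shared SE therefore does not show the wider spread in LoPro. With 1 array or pool left out, the LoPro rise lay between 2.82 (7.04-fold, without LoPro stage 1 replicate 3) and 3.97 (15.6-fold, without the LoPro replicate 2 pool).

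The 5′ sucrose-binding control rose most of the 7. It read 87.2, 105 and 93.5 at stage 1 in HiPro, against 212, 394 and 87.2 in LoPro. At stage 4 it read 10326, 10307 and 8844 in HiPro, against 9268, 8431 and 7999 in LoPro. The stages were far apart in both lines, and the LoPro array of replicate 3 at stage 1 was as low as those of HiPro. The rise was 6.69 ± 0.51 on the log2 scale in HiPro (103-fold, limma adjusted p = 1.6e-08) and 5.46 ± 0.51 in LoPro (44.1-fold, limma adjusted p = 1.7e-07, or 29.6-fold without LoPro stage 1 replicate 3). Ranked by log2 change over all 37694 probesets, these rises stood 9th in HiPro and 8th in LoPro. The HiPro rank belongs to a probeset that the study had already listed for this rise. The intermediate stages filled the range in order, with 1361, 1217 and 1063 at stage 2 and 8693, 6965 and 4086 at stage 3 in HiPro, and 1529, 4178 and 525 at stage 2 and 5813, 8765 and 6941 at stage 3 in LoPro.

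The M control rose less. Its stage 1 signals were 4805, 3818 and 5114 in HiPro, against 9551, 10042 and 5249 in LoPro. Here the lines did not overlap, but the gap was narrow, between 5114 and 5249. Its stage 4 signals were 21758, 24617 and 19106 in HiPro, against 20654, 18338 and 18649 in LoPro. The change of 2.26 ± 0.21 in HiPro (limma adjusted p = 1.3e-07) and 1.27 ± 0.21 in LoPro (limma adjusted p = 0.00011) left the 2 lines overlapping at stage 4.

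LOC100787186 and the 3′ control had the smallest log2 changes, and both stayed near the top of the signal range. On every array LOC100787186 lay between the 99.456 and 99.841 percentile of all probesets and the 3′ control between 99.719 and 99.96, and the highest signal of any probeset was 34480 signal units. How far the upper end of the range limits such changes was not tested. LOC100787186, the other sucrose-binding protein gene, gave 8992, 9003 and 10265 at stage 1 in HiPro, against 17147, 12622 and 9388 in LoPro. At stage 4 it gave 20263, 23878 and 18531 in HiPro, against 18972, 17473 and 18824 in LoPro. Stages 1 and 4 did not overlap in either line, but the gap in LoPro was narrow, between 17147 at stage 1 and 17473 at stage 4. The rise was 1.14 ± 0.18 in HiPro (limma adjusted p = 6.9e-05) and 0.54 ± 0.18 in LoPro, the change that missed the fold threshold. Without LoPro stage 1 replicate 1, the array with the highest of these stage 1 signals, the LoPro rise was 0.76 and was called, while without LoPro stage 1 replicate 3 it was 0.32 (limma adjusted p = 0.22).

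The 3′ control followed LOC100787186 closely. It read 9893, 9837 and 11627 at stage 1 and 24102, 28501 and 21426 at stage 4 in HiPro, and 19584, 15146 and 11136 at stage 1 and 23994, 21623 and 22552 at stage 4 in LoPro. It rose by 1.23 ± 0.19 in HiPro (limma adjusted p = 3.4e-05) and by 0.61 ± 0.19 in LoPro (limma adjusted p = 0.017). Without LoPro stage 1 replicate 3 the LoPro rise of the 3′ control was 0.40 (limma adjusted p = 0.13), and without LoPro stage 4 replicate 1 it was 0.57 (limma adjusted p = 0.06). The log2 difference between the 3′ control and LOC100787186 varied between arrays by an SD of only 0.047, and the correlation of their log2 signals over the 24 arrays was r = 0.997. The small changes of both depended on scaling: under quantile normalization the 3′ control changed by 0.32 in HiPro and 0.24 in LoPro and LOC100787186 by 0.33 in HiPro and 0.19 in LoPro, none of which reached 1.5-fold.

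**Figure D2:**
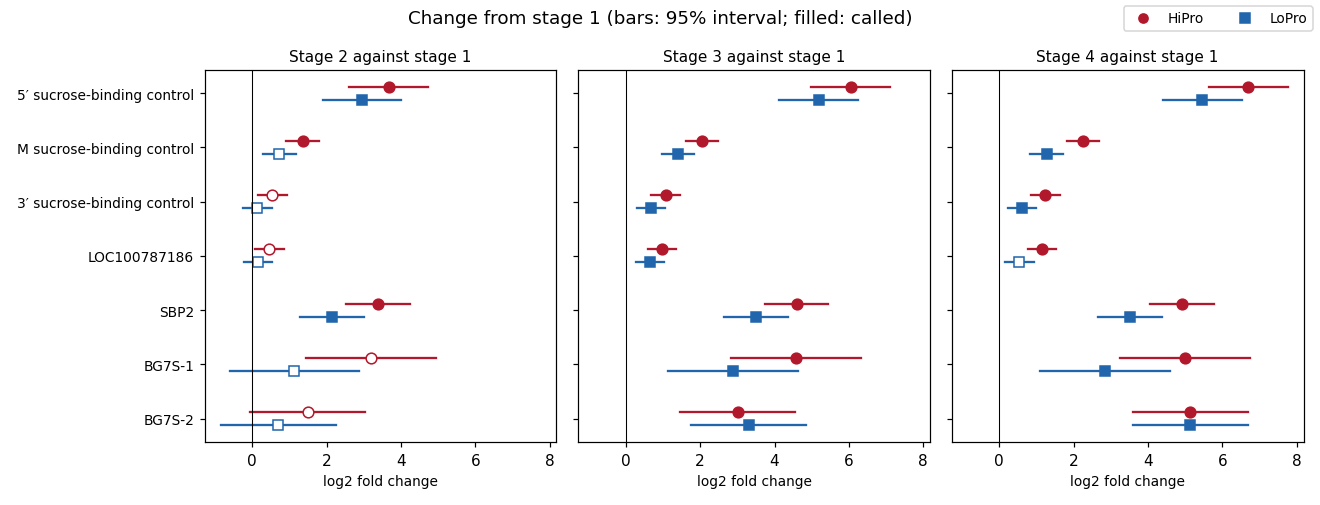
Log2 fold change of each probeset at stages 2, 3 and 4 against stage 1, with HiPro (circles) above LoPro (squares), bars for the 95% interval of the limma fit and filled symbols for called changes. The 5′ control rose by 6.69 in HiPro and 5.46 in LoPro by stage 4, the 3′ control by 1.23 in HiPro and 0.61 in LoPro.

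The 3 control probesets moved by different amounts. In the sucrose-binding control, the log2 signal of the 3′ probeset minus that of the 5′ probeset averaged 6.78 in HiPro and 6.26 in LoPro at stage 1, 3.64 in HiPro and 3.45 in LoPro at stage 2, 1.80 in HiPro and 1.75 in LoPro at stage 3, and 1.32 in HiPro and 1.41 in LoPro at stage 4. Between stage 1 and stage 4 it fell in 6 of 6 plant pools, by 5.16 ± 0.66 on average (SD, n = 6), with the change in single pools between -5.68 and -3.91. The 5′ probeset ranged between the 30.872 and 99.209 percentile, and the 3′ probeset stayed near the top of the range as given above. The exact sign-flip permutation test over the 6 pools (two-sided) gave p = 0.0312, the smallest it can give, and 0.052 after Benjamini-Hochberg adjustment over the 5 soybean control pairs of the array. The fall restates the rise of the 5′ probeset (6.69 in HiPro, 5.46 in LoPro) beyond that of the 3′ probeset (1.23 in HiPro, 0.61 in LoPro). The study had already listed the 5′ rise in HiPro, so this test is no separate evidence. Over all stages the difference averaged 3.39 ± 0.15 in HiPro and 3.22 ± 0.58 in LoPro (SD over 3 pools each), which did not pass an exact permutation test of the pool means (p = 0.8, two-sided; 3 pools against 3 cannot go below 0.1).

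The other soybean controls gave smaller mean changes of the same measure, and the difference between pairs was not tested. The actin pair changed by 0.09 ± 0.27 (SD, n = 6 pools; exact sign-flip p = 0.438). The ubiquitin pair fell by 1.47 ± 2.31 (exact sign-flip p = 0.188), with single pools between -5.23 and 1.11. The P450 pair fell by 0.72 ± 0.33 and the GlutTrans pair by 0.51 ± 0.23, each in 6 of 6 pools (exact sign-flip p = 0.0312 for each). Of the 3 sucrose-binding probesets the 5′ one correlated best with SBP2 among the member genes (r = 0.985 over 24 arrays), as did the M one (r = 0.978), while the 3′ one correlated best with LOC100787186. These correlations share the arrays and the common rise through seed fill, and which transcripts each control probeset detects was not tested.

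**Figure D3:**
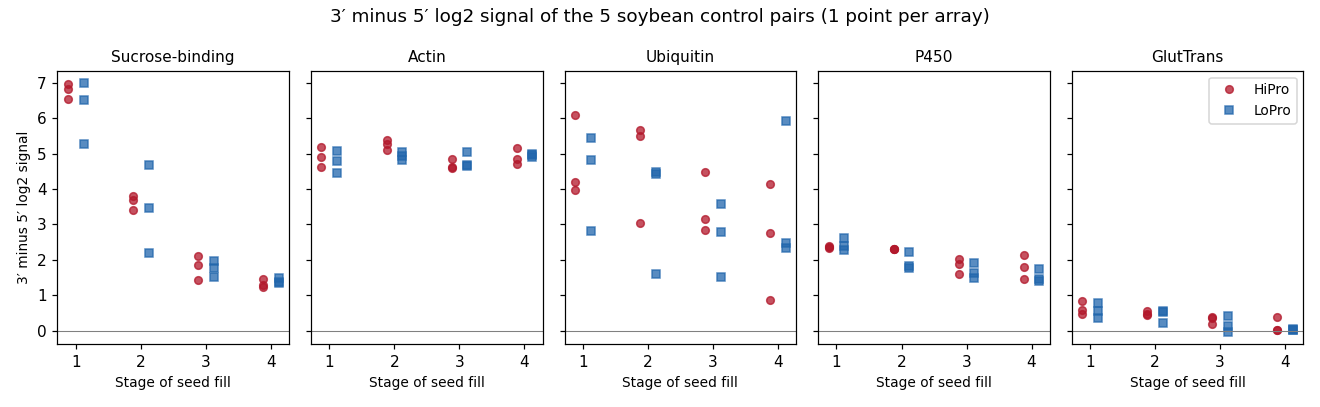
Log2 signal of the 3′ probeset minus that of the 5′ probeset for the 5 soybean control pairs against stage, with 1 point per array (HiPro circles, LoPro squares). The sucrose-binding pair fell by 5.16 on average between stages 1 and 4. The ubiquitin pair fell by 1.47, the P450 pair by 0.72 and the GlutTrans pair by 0.51, and the actin pair changed by 0.09.

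BG7S-1, a basic 7S globulin gene, varied most between arrays of a group in the smallest seed. Its stage 1 signals were 365, 2979 and 493 in HiPro, against 8410, 7856 and 507 in LoPro. Each line thus held arrays at both a low and a high level, with replicate 2 high in HiPro and replicate 3 low in LoPro. At stage 2 they were 8841, 10585 and 4427 in HiPro and 6856, 18631 and 2743 in LoPro, again with a wide spread in LoPro. The step to stage 2 in HiPro was 3.20 ± 0.84 (limma adjusted p = 0.067; blocking on the plant pool gave 0.014). By stage 3 the signals were 21399, 25215 and 13327 in HiPro and 20955, 26240 and 24374 in LoPro, and at stage 4 they were 25329, 29645 and 22750 in HiPro and 22998, 21977 and 24125 in LoPro. The rise from stage 1 to stage 4 was 4.99 ± 0.84 in HiPro (31.7-fold, limma adjusted p = 0.00011) and 2.84 ± 0.84 in LoPro (7.14-fold, limma adjusted p = 0.014). The SE is again shared by all groups, while over the 3 pools of each line the rise had an SD of 1.48 in HiPro and 2.37 in LoPro. The call in LoPro rested on 1 array: without LoPro stage 1 replicate 3 the rise was 1.502 ± 0.68 (limma adjusted p = 0.13). In HiPro the rise was 5.92 (60.7-fold) without stage 1 replicate 2, and called.

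BG7S-2, its paralogue, had its lowest signals near those of the dimmest probesets. Among the members, its stage 4 arrays alone lay above all stage 3 arrays in both lines, while those of the 5′ control did so in HiPro. The share of all probesets separated in this way was not counted. BG7S-2 read 27.0, 53.7 and 33.8 at stage 1 in HiPro, against 106, 130 and 11.9 in LoPro, the last of these below 14.5, the 10th percentile of all signals. At stage 2 it read 110.2, 142 and 69.3 in HiPro and 76.7, 293 and 31.3 in LoPro, and at stage 3 it read 300.4, 520.2 and 164 in HiPro and 412, 783 and 484 in LoPro. Stage 4 signals were 1618, 1125 and 1171 in HiPro and 3378, 1704 and 1236 in LoPro. From stage 1 to stage 4 the rise was 5.14 ± 0.74 in HiPro (35.2-fold, limma adjusted p = 2.2e-05) and 5.14 ± 0.74 in LoPro (35.2-fold, limma adjusted p = 2.8e-05). The LoPro value depended on the dimmest array: without LoPro stage 1 replicate 3 the rise was 4.04 (16.4-fold, limma adjusted p = 0.00015), and without the LoPro replicate 2 pool it was 5.85 (57.6-fold).

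The last step alone did not pass across all probesets. Stage 4 against stage 3, BG7S-2 was higher by 2.12 ± 0.74 in HiPro (limma adjusted p = 0.29) and by 1.84 ± 0.74 in LoPro (limma adjusted p = 0.44). No member was called for that step in HiPro, where 0.0133% of all probesets were called higher, or in LoPro, where 0.0345% were. At an unadjusted p below 0.05 the count was 1 of 7 in each line, BG7S-2 both times, against 10.1% of all probesets in HiPro and 9.31% in LoPro. The changes of the other members over that step lay between 0.17 (3′ control and LOC100787186) and 0.64 (5′ control) in HiPro and between -0.13 (M control) and 0.27 (5′ control) in LoPro. With the plant pool as a block, the BG7S-2 step had a limma adjusted p of 0.054 in HiPro and 0.13 in LoPro.

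The step from stage 2 to stage 3 carried calls in both lines. In HiPro 1 of 7 was called higher, the 5′ control (2.38 ± 0.51, limma adjusted p = 0.014), against 1.13% of all probesets, and with the plant pool as a block the count was 3 of 7, joined by the M control and SBP2. In LoPro 4 of 7 were called higher, against 4.68% of all probesets. These were the 5′ control (2.24 ± 0.51), BG7S-2 (2.60 ± 0.74), SBP2 (1.36 ± 0.41) and the M control (0.67 ± 0.21). The HiPro call was lost without any 1 of HiPro stage 2 replicates 2 and 3 and stage 3 replicates 1 and 2. The LoPro call of the 5′ control held without any single array, while those of SBP2 and the M control were lost without any 1 of LoPro stage 2 replicates 1 and 3 and the 3 stage 3 arrays, and that of BG7S-2 without any of these but stage 3 replicate 1.

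The same steps were then read within the plant pools of each line. SBP2 changed by 3.38, 1.21 and 0.32 on the log2 scale over the 3 steps in HiPro and by 2.15, 1.36 and 0.018 in LoPro (means of 3 pools). BG7S-1 changed by 3.20, 1.37 and 0.42 in HiPro, against 1.13, 1.75 and -0.045 in LoPro. LOC100787186 changed by 0.46, 0.51 and 0.17 in HiPro and by 0.15, 0.50 and -0.11 in LoPro. In these 3 genes the last step was the smallest in HiPro and near 0 or negative in LoPro. BG7S-2 changed by 1.49, 1.52 and 2.12 in HiPro and 0.70, 2.60 and 1.84 in LoPro. The last step of BG7S-2 was positive in 6 of 6 pools, between 1.11 and 3.04.

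Compared directly, the third step of BG7S-2 exceeded that of SBP2 by 1.81 ± 0.76 on the log2 scale (SD, n = 6), that of BG7S-1 by 1.80 ± 0.73 and that of LOC100787186 by 1.95 ± 0.80, each in 6 of 6 pools. In the first step the BG7S-2 change minus the SBP2 change was -1.67 ± 0.53, negative in 6 of 6 pools. Each of these 4 differences had the smallest p that an exact sign-flip permutation test over 6 pools can give (two-sided, p = 0.0312), and 0.0511 after adjustment over the 18 comparisons of gene pairs and steps, so none passed 0.05. Other comparisons among the 18 gave the same p, so it is not particular to the last step of BG7S-2. SBP2 exceeded LOC100787186 by 2.46, 0.78 and 0.14 over the steps. In the second step BG7S-2 exceeded SBP2 by 0.77 and LOC100787186 by 1.55, and BG7S-1 exceeded LOC100787186 by 1.06. The comparisons were chosen after the values had been seen. They set probesets of unequal brightness side by side, since the highest percentile reached was 96.304 for BG7S-2, 99.716 for SBP2, 99.841 for LOC100787186 and 99.992 for BG7S-1, and the part of the upper end of the signal range in the small last steps was not tested. BG7S-1 and SBP2 differed in the third step by 0.02 ± 0.13, with the sign split evenly over the pools (exact sign-flip p = 0.812).

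**Figure D4:**
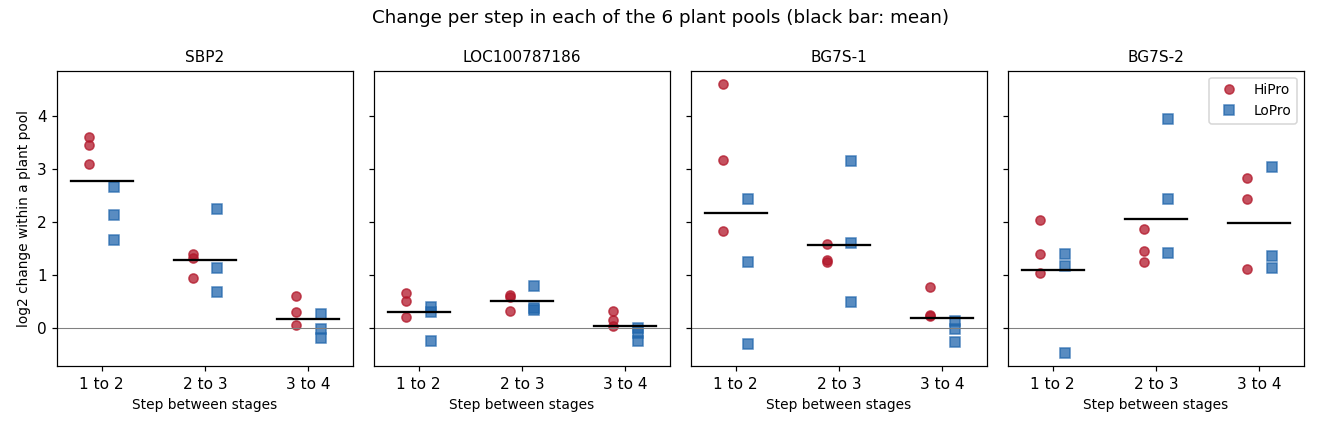
Log2 change within each of the 6 plant pools for the steps from stage 1 to 2, 2 to 3 and 3 to 4 (HiPro circles, LoPro squares, black bar for the mean of 6). SBP2 gained 2.76 on average in the first step and 0.17 in the third, and BG7S-2 gained 1.10 in the first and 1.98 in the third.

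HiPro and LoPro were then compared at each stage. No member was called at stage 1 (0.0159% of all probesets in either direction), stage 2 (0.0133%), stage 3 (0.0345%) or stage 4 (0.061%), nor over the mean of the 4 stages (0.0982%), by limma. At an unadjusted p below 0.05 there were 5 of 7 at stage 1 (4.32% of all probesets), 0 at stage 2 (4.98%), stage 3 (7.09%) and stage 4 (4.48%) and 1 over the mean (8.01%), the M control (HiPro minus LoPro, -0.24 ± 0.10 on the log2 scale). As above, several of the 7 probesets moved together, so these are not counts over separate genes. At stage 1 all 7 fitted differences were negative. HiPro minus LoPro was -0.43 ± 0.18 for LOC100787186, -0.52 ± 0.19 for the 3′ control, -0.58 ± 0.74 for BG7S-2, -0.81 ± 0.21 for the M control, -1.03 ± 0.51 for the 5′ control, -1.22 ± 0.41 for SBP2 and -1.99 ± 0.84 for BG7S-1 on the log2 scale. Only the M control showed no overlap between the lines there (limma adjusted p = 0.71), and its gap was narrow, between 5114 in HiPro and 5249 in LoPro. The share of all probesets without such overlap was not counted, so this is not read as particular to the M control. At stage 4 the differences lay between -0.58 for BG7S-2, with a 95% interval of -2.13 to 0.97, and 0.20 for the 5′ control, with an interval of -0.86 to 1.26.

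LoPro replicate 3 weighed on these comparisons. At stage 1 its array held the lowest LoPro signal for each of the 7 probesets. Without it, 3 members were called lower in HiPro than in LoPro at stage 1, namely SBP2 (-1.93 ± 0.31, limma adjusted p = 0.0075), the M control (-1.11 ± 0.18, limma adjusted p = 0.01) and BG7S-1 (-3.32 ± 0.68, limma adjusted p = 0.043). Leaving out the lowest LoPro array widens these differences by construction, so the calls are no separate evidence of a line difference. With all arrays 0.0159% of all probesets were called in either direction, and the share without this array is not given here. The array carries no label that sets it apart, and the comparison with all 3 arrays is the main one.

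The rise itself was compared between the lines. Stage 4 against stage 1, the HiPro rise exceeded the LoPro rise by 0.99 ± 0.30 for the M control, 1.39 ± 0.58 for SBP2, 0.63 ± 0.26 for the 3′ control, 0.60 ± 0.26 for LOC100787186, 1.23 ± 0.72 for the 5′ control and 2.15 ± 1.18 for BG7S-1, all on the log2 scale. For BG7S-2 the difference was 0.00 ± 1.05, with a 95% interval of -2.19 to 2.19. These differences use the same stage 1 arrays as the line comparison above and are not separate from it. For SBP2, HiPro minus LoPro was -1.22 at stage 1 and 0.16 at stage 4, and for the M control -0.81 at stage 1 and 0.18 at stage 4. None of the 7 was called for the change to stage 2, to stage 3 or to stage 4 (0% of all probesets in each, by limma). At an unadjusted p below 0.05 there were 2, 1 and 4 of 7 in that order, beside 4.13%, 3.63% and 4.94% of all probesets, and the smallest limma adjusted p was 0.97. Without the LoPro replicate 3 pool, SBP2 was called for the change to stage 4, with a difference of 2.07 ± 0.31 (limma adjusted p = 0.026). That pool had the largest LoPro rise of SBP2, so leaving it out widens the difference by construction.

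The members also varied together within a group. At stage 2, LoPro replicate 2 gave the highest and replicate 3 the lowest LoPro signal for each of the 7 probesets, as with the 5′ control at 4178 and 525. At stage 3 the lowest HiPro array was replicate 3 for all 7, as with SBP2 at 10846 beside 16505 and 16129. Over the 24 arrays the log2 signals of the 4 genes correlated at r = 0.859 for BG7S-2 with SBP2, 0.871 for BG7S-2 with BG7S-1 and with LOC100787186, 0.903 for LOC100787186 with SBP2, 0.907 for BG7S-1 with LOC100787186 and 0.945 for BG7S-1 with SBP2. These values describe arrays that share pools and stages.

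Among 8673 other probesets with a single gene symbol, those most like each gene were found by Pearson's r of log2 signal over the 24 arrays. Nearest to LOC100787186 were the glycinin genes GY1 (r = 0.993) and GY2 (r = 0.993) and the lipoxygenase gene LOX3 (r = 0.993). Nearest to SBP2 were LOC100306653 (r = 0.994), the lipoxygenase gene LOX1.1 (r = 0.990) and the Kunitz trypsin inhibitor gene KTI1 (r = 0.989). Nearest to BG7S-1 were PGMPM19 (r = 0.993), LOC547496 (r = 0.981) and LOC547892 (r = 0.978). Nearest to BG7S-2 were LOC732650 (r = 0.983), the proline-rich protein gene PRP2 (r = 0.976) and LOC100781551 (r = 0.970). The 5′ control was nearest to LOC100305847 (r = 0.986), LOC548029 (r = 0.984) and LOC547716 (r = 0.982). No probeset was nearest to more than 1 of them.

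The other storage globulins of the seed, the relatives of the sucrose-binding proteins, were read on the same arrays. Of 11 glycinin and beta-conglycinin probesets, 8 of them also cotyledon markers above, 8 were called higher and 0 lower at stage 4 against stage 1 in HiPro, and 7 higher and 1 lower in LoPro, with medians of 1.28 in HiPro and 0.72 in LoPro on the log2 scale. Of all probesets, 10.7% were called higher and 13.5% lower in HiPro in that comparison, and 11.3% higher and 10.4% lower in LoPro. The beta-conglycinin gene CG-BETA-1 rose by 7.56 and 10.98 in HiPro and by 5.17 and 7.15 in LoPro in its 2 probesets, and the glycinin gene GY3 rose by 6.396 in HiPro and 5.14 in LoPro. The CG-BETA-1 probeset with the larger rise read as low as 6.28, below 14.5, the 10th percentile of all signals. The probeset called lower in LoPro was 1 of CG-1 (-0.89 in HiPro, limma adjusted p = 0.11, and -2.05 in LoPro, limma adjusted p = 0.00074). A GY1 probeset changed by 0.56 in HiPro and -0.017 in LoPro and was not called. The GY2 probeset with the smaller change rose by 0.98 in HiPro and changed by 0.40 in LoPro (limma adjusted p = 0.12), near LOC100787186.

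Genes that move or split sucrose were listed as well. They comprised 17 probesets of sucrose synthase, the sucrose transporter SUT1, cell wall invertase and SWEET sugar exporters. At stage 4 against stage 1, 3 were called higher and 0 lower in each line, with medians of 0.21 in HiPro and 0.12 in LoPro. Of all probesets, 10.7% were called higher in HiPro and 11.3% in LoPro. SWEET13 rose by 0.78 in HiPro and 0.61 in LoPro, and 1 SWEET17 probeset rose by 1.04 in HiPro and 0.81 in LoPro. The other SWEET17 probeset was called in HiPro alone (1.54, against 0.76 in LoPro), and 1 SUT1 probeset in LoPro alone (0.39 in HiPro, against 0.60 in LoPro); the difference between lines was not tested for either. The sucrose synthase probeset of highest mean signal changed by 0.28 in HiPro (limma adjusted p = 0.29) and by -0.18 in LoPro (limma adjusted p = 0.53). Of 8 germin-like and cupin-named probesets, 1 was called higher and 3 lower in HiPro and 0 higher and 3 lower in LoPro. Of all probesets, 13.5% were called lower in HiPro and 10.4% in LoPro. The falls were those of GER10 (log2 changes of -3.03 and -3.38 in HiPro and -3.13 and -3.16 in LoPro) and of 1 GER2 probeset (-7.10 in HiPro and -4.14 in LoPro). That GER2 probeset read as low as 0.45, below 14.5, the 10th percentile of all signals. The other GER2 probeset went the other way and was not called (1.67 in HiPro, limma adjusted p = 0.16, and 2.16 in LoPro, limma adjusted p = 0.074).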

How the data were processed

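Soy GeneChip arrays measured RNA of developing seed, extracted with Trizol and RNeasy, in 8 groups of line and stage with 3 arrays each. Per the labels, the deposited intensity values are MAS5 signals made by the authors (version not given in the sources used here). They are linear. Trimmed by 2% at each end, the array means were 500.14 to 500.17, and the array medians were 199 to 229. The study's methods name RMA for its own comparisons, so its values were processed differently. Arrays give no depth, and their number limits the precision. Of 37763 probesets, 69 non-soybean controls were left out.

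Log2 signals went into limma 3.58.1 (R 4.3.3) with a mean for each of the 8 groups (lmFit, eBayes with trend, 16 residual degrees of freedom), with p-values adjusted over 37694 probesets, and the code was tested on simulated data. Intervals are 95%. Changes within plant pools were tested by exact sign-flip permutation. Values of LOC100787186 and the other genes come from probesets matched to symbols by GEO's platform annotation, with 8677 probesets having 1 symbol, 370 several and 28647 none. Gene lists were read by symbol, and no gene with an aspartic protease or xylanase inhibitor symbol was found, so that list was not analysed here.

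By the methods, a replicate's 4 stages were picked from 1 set of plants, so the replicate number pairs the stages of each line. Residuals correlated within a pool by a mean of 0.0961 (0.0331 to 0.155 by pool), those of the same number in the other line 0.0796 and others -0.0433. The sign-flip tests treat the 6 pools as independent, and pools of the same number in the 2 lines may not be. The main fit has no block. The named genes were the members, the 3 probesets most like each, and list members chosen for signal or call. Members and lists were chosen with earlier results of these data known. Alternatives changed scaling, floor, filter, variance model, test, block and the arrays or pools included.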

Additional observations from a re-analysis of the deposited data

How the results depend on the processing

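Over 39 alternative settings the counts of called members kept within 1.5 times the reported value except as follows. The methods' t-test gave 1 of 7 in HiPro and 0 in LoPro for stage 2 against stage 1, 3 in HiPro and 0 in LoPro for stage 3 against stage 1, 1 in LoPro for stage 4 against stage 1, and 0 in each line for stage 3 against stage 2. It also gave 0 for stage 4 against stage 3 in each line and for the line comparison at every stage and over the stage mean. For stage 3 against stage 2 the count was 2 in LoPro with quantile normalization and with eBayes without the trend, and in HiPro 2 without the dimmest 30% of probesets and 3 with a replicate block of either kind, the plant pool or the replicate number. The block changed no other count by over 1.5 times. With 1 array or 1 pool left out, the counts ran from 1 to 4 in HiPro and 0 to 3 in LoPro for stage 2 against stage 1, 6 to 7 in HiPro and 4 to 7 in LoPro for stage 3 against stage 1, 7 in HiPro and 4 to 7 in LoPro for stage 4 against stage 1, and 0 to 3 in HiPro and 1 to 5 in LoPro for stage 3 against stage 2. They ran from 0 to 3 for HiPro against LoPro at stage 1, 0 to 1 over the mean of the stages and 0 to 1 for the difference in the change to stage 4. The lowest counts for stages 3 and 4 against stage 1 in LoPro came without LoPro stage 1 replicate 3 and, for stage 3, also without LoPro stage 3 replicate 2. The 3′ minus 5′ fall of the sucrose-binding control lay between -5.41 and -5.05 with 1 pool left out, where 5 pools cannot give p below 0.0625. Its HiPro minus LoPro difference lay between -0.15 (without LoPro replicate 2) and 0.43, and was 0.17 with all pools.

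Of 3178 recomputed changes of single members, 3015 kept direction and call, 105 lost the call, 31 gained it and 27 changed sign, none of these 27 called with the reported setting. With quantile normalization the 3′ control changed by -0.0070 in HiPro and 0.066 in LoPro from stage 3 to stage 4, and BG7S-1 by 0.12 in LoPro. With 1 array or pool left out, the LoPro change from stage 3 to stage 4 lay between -0.14 and 0.010 for the 3′ control, -0.14 and 0.060 for BG7S-1 and -0.10 and 0.12 for SBP2. The LoPro change from stage 1 to stage 2 lay between -0.078 and 0.33 for the 3′ control, -0.064 and 0.37 for LOC100787186, -0.21 and 1.84 for BG7S-1 and -0.40 and 1.46 for BG7S-2, each lowest value coming without LoPro stage 1 replicate 3. For BG7S-2, HiPro minus LoPro at stage 1 lay between -1.68 and 0.046, and its difference in rise, 0.00 as reported, was 0.048 with quantile normalization, 0.11 with median centring, 0.10 with a floor at the 10th percentile and between -0.71 and 1.10 with 1 array or pool left out. The causes were not tested. With 3 arrays a group, the LoPro change of LOC100787186 from stage 1 to stage 4 had an SE of 0.18 beside a size of 0.54, and BG7S-2 in the smallest seed lay near the dimmest probesets.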
